A study of Sus scrofa with 41 samples.

Results

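Psoas major muscle of 41 purebred, uncastrated Danbred boars was sequenced as mRNA, with 13 Duroc and 28 Landrace pigs. All pigs were fed freely on a commercial breeding station and were slaughtered at about 100 kg, and the feed conversion ratio (FCR, feed eaten per weight gained) was measured from about 28 kg. The genes described here are 8 of the 25880 genes in the count tables, IDI1, HMGCS1, SQLE, FDFT1, FDPS, INSIG1, SREBF2 and GGPS1, taken by their pig Ensembl symbols. IDI1 was chosen because its level differed between the breeds, so its breed difference is given as a description without a test, while the other 7 were taken as genes of the same pathway. The Duroc pigs had a mean FCR of 1.97, a mean RNA integrity number (RIN) of 8.12 and a mean age of 147 days, and the Landrace pigs had means of 2.10, 7.84 and 155 days. The pigs were slaughtered in 5 batches, and each batch is a slaughter day. Breed is therefore mixed with differences in FCR, RIN, age and batch, all of which were terms of the model.

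Cholesterol is built from acetyl-CoA through the mevalonate pathway. HMG-CoA synthase (HMGCS1) acts early in the making of mevalonate, which becomes isopentenyl diphosphate, and the isomerase IDI1 turns this into dimethylallyl diphosphate, the starter for longer isoprenoids. FDPS makes farnesyl diphosphate, GGPS1 lengthens it to geranylgeranyl diphosphate for prenylated proteins, and FDFT1 (squalene synthase) and SQLE (squalene epoxidase) commit it to sterols. When sterols are low, the transcription factor SREBP-2, encoded by SREBF2, is released and raises the transcription of these enzymes, while INSIG1 holds it back in the endoplasmic reticulum. Genes under a shared SREBP-2 input are therefore often seen to move together in liver and cultured cells.

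The libraries held 22188911 to 25954816 counts on genes. Values are counts scaled to a common library size (CPM) after TMM normalisation, a scaling that sets the bulk of genes level between pigs, and the TMM factors ran from 0.65 to 1.24. The count filter was passed by 11146 genes, and 7 of the 8 members passed. The exception was FDPS, with 0 to 18 counts per pig. Marker genes of other cell types and fibre types are given beside a background of 15.6% of all tested genes called higher and 17.5% called lower in Landrace at a false discovery rate (FDR) under 0.1. The endothelial markers had a summed level of 27.2 to 121 CPM in Landrace and 47.8 to 145 CPM in Duroc pigs, and 3 of 3 tested were lower in Landrace. Of the adipocyte markers 2 of 3 tested were lower in Landrace, with sums of 49.4 to 364 and 119 to 307 CPM, and LEP was at 0 in 29 pigs and PLIN1 in 4. The fast fibre markers summed to 19989 to 71735 and 27809 to 52529 CPM with 4 of 5 higher in Landrace, and the slow fibre markers to 1526 to 18489 and 4623 to 14878 CPM with 2 of 6 lower. The fibroblast (1 of 5 lower; 549 to 12346 and 557 to 4206 CPM) and leukocyte lists (1 of 7 lower; 9.78 to 79.5 and 15.0 to 63.6 CPM) overlapped widely, 2 of 4 general muscle markers were higher (104965 to 191045 and 112615 to 151118 CPM), and the hepatocyte list summed to 2.83 to 15.2 and 2.80 to 18.3 CPM, with 1 of 1 tested lower, TTR at 0 in 25 pigs and FGB at 0 in 13. The part of these lists in the results on the sterol genes was not tested, and in whole muscle fewer cells of a type and less RNA per cell cannot be told apart.

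IDI1 (ENSSSCG00000029066) stood at 12.3 CPM in the lowest, 15.8 in the median and 18.3 in the highest Duroc pig. In the Landrace pigs it stood at 22.1, 33.1 and 62.3 CPM. Every one of the 28 Landrace pigs was above every one of the 13 Duroc pigs, and the deposited counts, 254 to 514 in Duroc and 569 to 1259 in Landrace, did not overlap before any scaling either. The means were 15.7 ± 1.81 CPM (SD, n = 13) and 34.9 ± 8.85 CPM (SD, n = 28), a ratio of 2.23. With FCR, RIN, age and batch in the model the fitted difference was 1.26 on the log2 scale (SE 0.120). Ranges without overlap were found for 10 of the 11146 genes, or 0.0897%, 8 of them higher in Landrace. Since IDI1 was chosen on this contrast, its place among them is no result of its own.

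**Figure D1:**
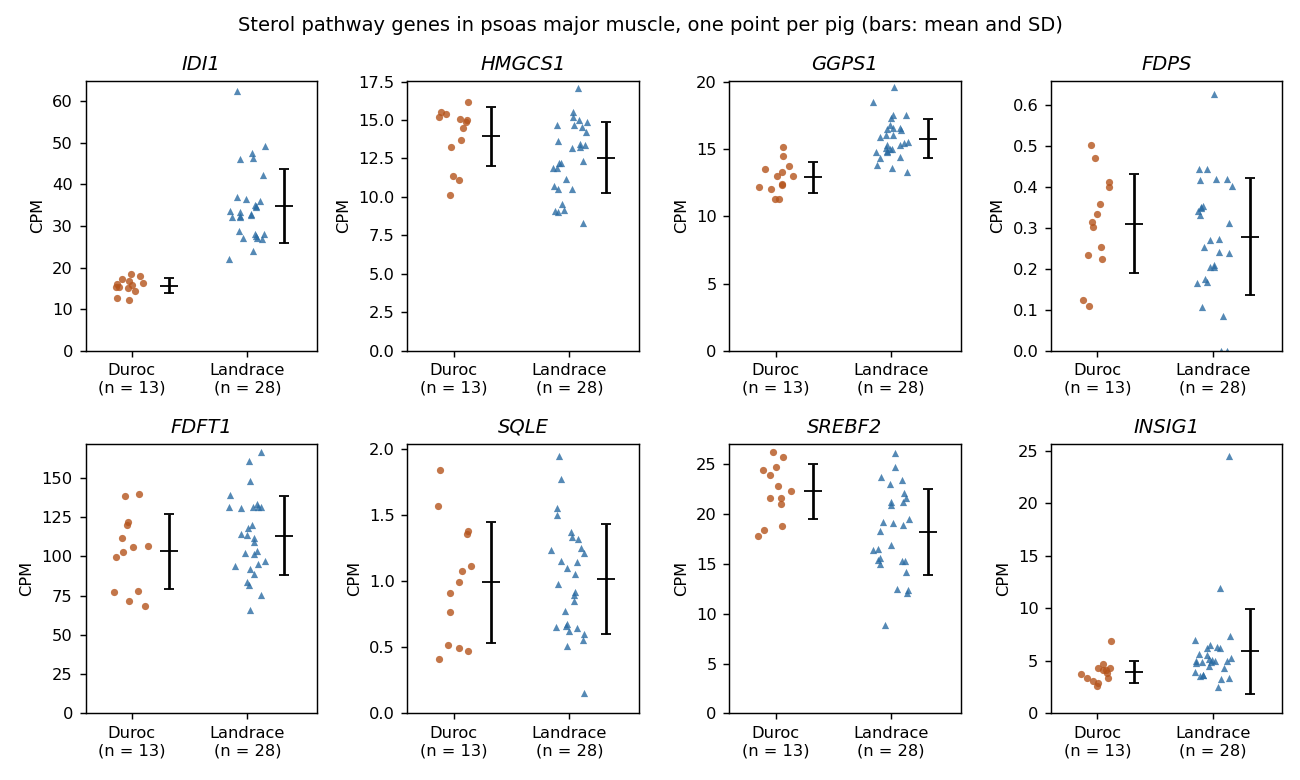
Level of each of the 8 sterol pathway genes in CPM (vertical axis, from 0), with one point per pig for 13 Duroc (circles) and 28 Landrace pigs (triangles), and the mean with its SD beside each group. IDI1 is the panel in which the breeds do not overlap (12.3 to 18.3 against 22.1 to 62.3 CPM), while in the other 7 panels they overlap.

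After TMM scaling the IDI1 level was also more variable among the Landrace pigs, and it moved with the slaughter batch. The size of the spread depended on the scaling. With library size alone, IDI1 ran from 23.2 to 49.4 CPM in Landrace and from 11.2 to 20.4 CPM in Duroc pigs. The Landrace range was thus narrower and the Duroc range wider than after TMM (22.1 to 62.3 and 12.3 to 18.3 CPM). The Landrace pig at 62.3 CPM had the lowest TMM factor, 0.65. After TMM, IDI1 in Landrace was 26.9 ± 3.20 CPM (SD, n = 7) in batch 3 and 33.5 ± 5.69 (SD, n = 12) in batch 2. It was 40.5 ± 7.94 (SD, n = 2) in batch 4 and 43.7 ± 9.65 (SD, n = 7) in batch 5. The mean RIN of these Landrace pigs was 8.00, 7.98, 7.80 and 7.44 in the same order, and over all 28 Landrace pigs log2 IDI1 had r = -0.56 with RIN and r = -0.67 with the log2 TMM factor. The part of RIN and of the TMM factor in the differences between batches was not tested. The Duroc means of the same batches lay between 14.6 and 17.4 CPM. Batch 1 held 1 Duroc pig at 17.4 CPM and no Landrace pig. The difference of the mean log2 CPM within a batch was 0.85 in batch 3, 1.19 in batch 2, 1.20 in batch 4 and 1.5 in batch 5. The sign within a batch follows from the separation over all pigs, and the size ran from 0.85 to 1.5.

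**Figure D2:**
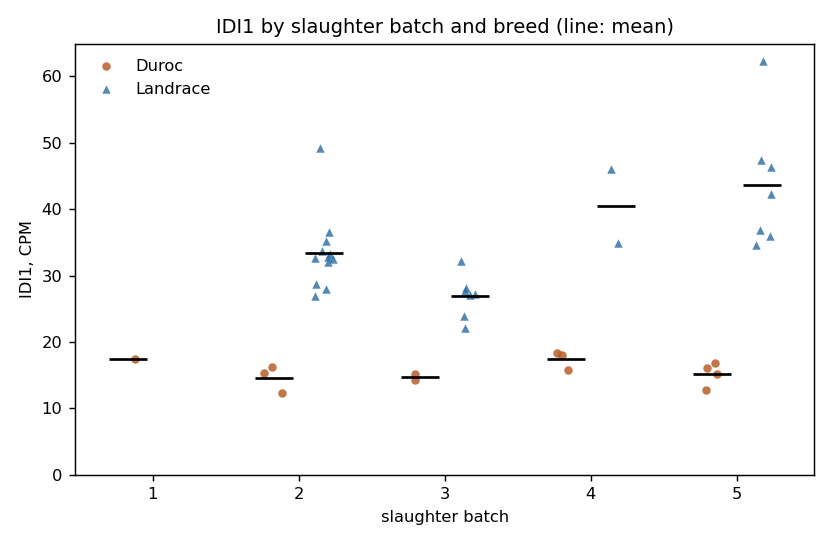
IDI1 level in CPM (vertical axis, from 0) by slaughter batch (horizontal axis) for Duroc (circles) and Landrace pigs (triangles), with a line at each mean. The Landrace means run from 26.9 CPM in batch 3 to 43.7 CPM in batch 5, and all Duroc pigs stay at or under 18.3 CPM.

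Since the breeds do not overlap over all pigs, they cannot overlap in any part of them, and only the size of the difference can vary. Among the 24 Landrace and 8 Duroc pigs within the FCR range held by both breeds, 1.92 to 2.18, the difference of the mean log2 CPM was 1.12. In the shared RIN range of 7 to 8.3, with 26 and 11 pigs, it was 1.12, and in the shared age range of 147 to 156 days, with 18 and 7 pigs, it was 1.08. These are descriptions of the contrast IDI1 was chosen on.

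The counting of IDI1 is touched by a neighbour on the other strand. The libraries were unstranded and the counter dropped pairs that fell on 2 genes, so pairs on stretches that IDI1 shares with an opposite gene are missing from its count. The 2 stranded columns of the counts, added together, hold these pairs and count each of them for both genes. They amounted to 36 to 280 pairs per pig for IDI1, and the number for WDR37, a WD-repeat gene 2 rows before it in the tables, was the same in 34 of 41 pigs and never differed by more than 1. As CPM these shared pairs were 8.00 ± 1.83 (SD, n = 28) in Landrace and 4.46 ± 1.07 (SD, n = 13) in Duroc pigs. They were a median of 20.7% of the pairs on IDI1 and 32.2% of those on WDR37. With them included, the fitted IDI1 difference was 1.20.

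The genes beside IDI1 on the chromosome differed less. IDI1 itself is not among the positions used here, but consecutive rows of the tables lie on the same chromosome in 99.8% of the pairs of named genes, and its named neighbours lie on chromosome 10 of Sscrofa11.1. The 10 nearest tested rows, 5 to each side, had fitted differences from -0.72 to 0.32. Of these 4 were called at an FDR under 0.1, where 33.1% of all tested genes were called for breed. GTPBP4 (68547316 to 68566040), a GTPase of ribosome assembly and the next row, averaged 18.5 ± 2.55 CPM over the Landrace pigs (SD, n = 28) against 16.2 ± 2.47 CPM over the Duroc pigs (SD, n = 13), a fitted difference of 0.30 (SE 0.080, FDR = 0.0063). ZMYND11 (69159456 to 69295640), a chromatin reader, was higher in Landrace by 0.32 (SE 0.057, FDR = 0.00010). WDR37 (68416058 to 68529662) was lower, at -0.29 (SE 0.080, FDR = 0.0076), and so was the mitochondrial peptidase PITRM1 (66996919 to 67021692), at -0.29 (SE 0.11, FDR = 0.052). The call of WDR37 depended on how the shared pairs are counted. With each of them counted for both WDR37 and IDI1, the WDR37 difference was 0.10 (FDR = 0.34). To which of the 2 genes these pairs belong cannot be told, so 0.10 is no better value than -0.29.

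The other members did not all go the way of IDI1. Of the 6 other members that could be tested, 3 were higher in Landrace (GGPS1, FDFT1 and INSIG1), 1 was lower (SREBF2) and 2 did not pass (HMGCS1 and SQLE). Over all 11146 genes 15.6% were called higher and 17.5% lower in Landrace. The median difference of the 6 was 0.028 on the log2 scale, with all genes at -0.0024.

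HMGCS1 (chromosome 16, 27936225 to 27957261), which makes HMG-CoA ahead of IDI1, was 8.33, 12.8 and 17.1 CPM in the lowest, median and highest Landrace pig and 10.2, 14.9 and 16.2 CPM in the Duroc pigs. The groups overlapped, with 23 of 28 Landrace pigs under the Duroc median. The fitted difference was -0.24 (SE 0.12, FDR = 0.14) and did not pass. It was called with batch as a number (-0.26, FDR = 0.099) and with library size scaling (-0.42, FDR = 0.022).

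Of the branch to prenyl groups, GGPS1 (chromosome 14, 55907885 to 55924037) was 13.3, 15.5 and 19.7 CPM in Landrace and 11.3, 13.0 and 15.2 CPM in Duroc pigs. All 28 Landrace pigs were above the Duroc median and 17 were above the highest Duroc pig. The means were 15.8 ± 1.47 (SD, n = 28) and 12.9 ± 1.15 CPM (SD, n = 13), and the fitted difference was 0.29 (SE 0.067, FDR = 0.0017). It was the same way in each batch, between 0.20 and 0.39. FDPS (chromosome 4, 94500140 to 94514820) was 0 to 0.626 CPM in Landrace and 0.109 to 0.501 CPM in Duroc pigs and was at 0 in 2 pigs. At 0 to 18 counts FDPS did not pass the count filter, so no fitted breed difference is given for it. Pairs that align to several places were not counted, so a gene with near-identical copies can be undercounted, and whether this holds for FDPS was not tested.

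Of the squalene enzymes, FDFT1 (chromosome 14, 14976259 to 15010701) was 65.6, 113 and 167 CPM in Landrace and 68.2, 106 and 140 CPM in Duroc pigs. The groups overlapped over nearly their whole range and 3 Landrace pigs were above all Duroc pigs. The means were 113 ± 25.1 (SD, n = 28) and 103 ± 23.9 CPM (SD, n = 13), and with the covariates in the model the difference was 0.48 (SE 0.16, FDR = 0.026). Within batches it was 0.15, 0.10, -0.24 and 0.51 for batches 2 to 5, and without batch in the model it was 0.33 (FDR = 0.13). FDFT1 also lost 562 to 1157 pairs per pig on a stretch shared with an opposite gene, and with them included the difference was 0.41 (FDR = 0.021).

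SQLE (chromosome 4, 14669789 to 14700152) had 3 to 56 counts per pig. It was 0.153, 1.01 and 1.95 CPM in Landrace and 0.408, 0.996 and 1.84 CPM in Duroc pigs, so the observed levels were nearly level. The fitted difference was nevertheless -0.69 (SE 0.31, FDR = 0.104), just above the threshold. It was called with either strand setting (FDR = 0.0997), without the 2 pigs of RIN below 7 (FDR = 0.0944), without Landrace pig 14 (FDR = 0.0943) and with library size scaling (FDR = 0.033), and it was -0.19 with batch left out (FDR = 0.69). Within batches it was 0.40, 0.14, -0.15 and -0.74 for batches 2 to 5, so its sign differed between batches.

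SREBF2 (chromosome 5, 6719484 to 6784724), the gene of the factor that drives the pathway, went the other way from IDI1. It was 8.87, 18.6 and 26.1 CPM in Landrace and 17.8, 22.4 and 26.2 CPM in Duroc pigs. The highest pigs of both breeds were alike, but 13 of 28 Landrace pigs were below every Duroc pig. The means were 18.2 ± 4.31 (SD, n = 28) and 22.3 ± 2.75 CPM (SD, n = 13), and the fitted difference was -0.63 (SE 0.14, FDR = 0.0011). This difference was not alike in all batches. In batch 2 the Landrace and Duroc means were 21.0 ± 3.31 (SD, n = 12) and 20.2 ± 2.05 CPM (SD, n = 3), and in batch 3 they were 19.1 ± 2.84 (SD, n = 7) and 22.8 ± 1.67 CPM (SD, n = 2). In batch 4 they were 12.1 ± 4.59 (SD, n = 2) and 25.2 ± 0.929 CPM (SD, n = 3), and in batch 5 they were 14.2 ± 1.91 (SD, n = 7) and 22.4 ± 3.03 CPM (SD, n = 4). The difference of the mean log2 CPM was 0.049, -0.27, -1.10 and -0.65 for batches 2 to 5, and the low SREBF2 pigs were thus mostly the Landrace pigs of batches 4 and 5. Without batch in the model the difference was -0.29 (FDR = 0.13).

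INSIG1 (chromosome 18, 2885494 to 2898758), the sterol-sensing anchor of SREBP-2 and itself a target of it, was 2.48, 4.99 and 24.6 CPM in Landrace and 2.57, 3.86 and 6.89 CPM in Duroc pigs. Of the Landrace pigs 22 of 28 were above the Duroc median. The highest value belonged to a single animal, Landrace pig 14, and the next was 11.99 CPM. The fitted difference was 0.73 (SE 0.31, FDR = 0.078), and without pig 14 it was 0.33 (FDR = 0.33). The call for INSIG1 therefore rests on this pig.

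**Figure D3:**
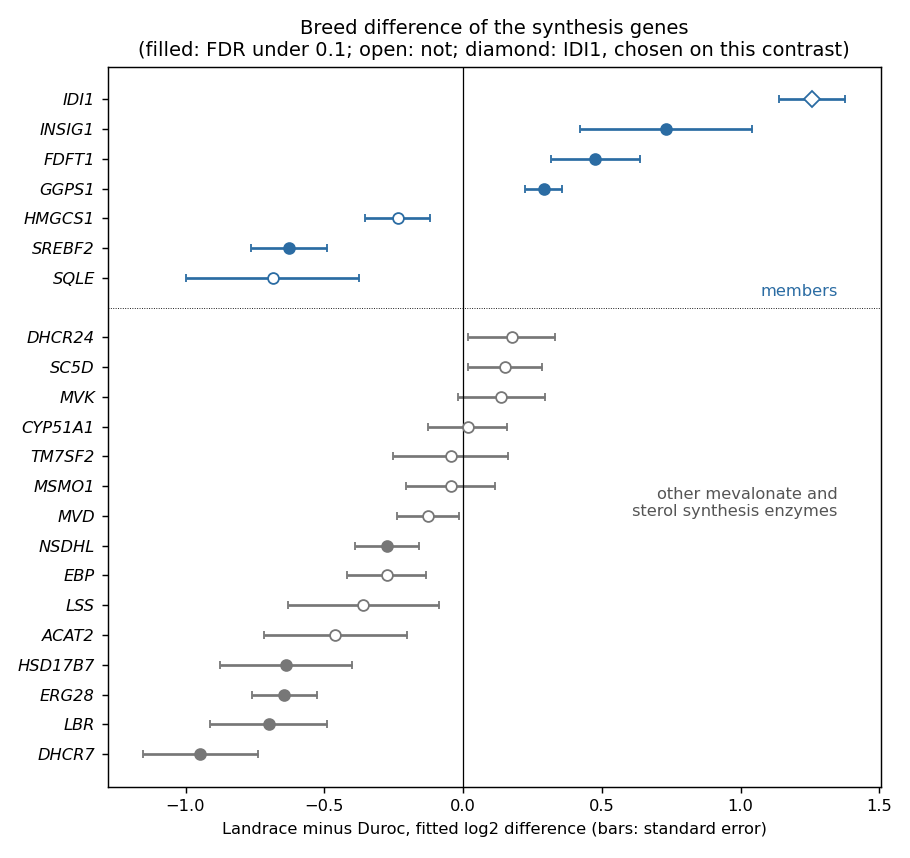
Fitted log2 difference between Landrace and Duroc pigs (horizontal axis, bars are standard errors) for the 7 members that could be tested, above the dotted line, and for 15 of the 16 other enzymes of mevalonate and sterol synthesis below it. Filled points have an FDR under 0.1, and the diamond is IDI1, which was chosen on this contrast. IDI1 is at 1.26, the other members run from -0.69 to 0.73, and none of the enzymes below the line is called above 0.

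Of 16 further mevalonate and sterol synthesis enzymes tested, 0 were called higher, 5 were called lower and 11 did not pass, beside 15.6% of all genes called higher and 17.5% called lower. Their median difference was -0.20, against -0.0024 over all genes. ERG28, a scaffold protein of the sterol demethylation complex, averaged 13.4 ± 2.18 CPM in the Landrace pigs (SD, n = 28) against 19.9 ± 6.91 CPM in the Duroc pigs (SD, n = 13), a fitted difference of -0.64 (SE 0.12, FDR = 0.00014). DHCR7, which catalyses the last step to cholesterol, was 1.64 ± 0.507 (SD, n = 28) and 3.24 ± 0.599 CPM (SD, n = 13), a difference of -0.95 (SE 0.21, FDR = 0.0012), and was lower in Landrace in all 4 batches with both breeds. The sterol reductase LBR differed by -0.70 (SE 0.21, FDR = 0.013) and the ketosteroid reductase HSD17B7 by -0.64 (SE 0.24, FDR = 0.043).

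The lists around the pathway are read beside the shares of all genes, 15.6% called higher and 17.5% called lower. Of 10 genes of SREBP processing and sterol sensing 1 was called higher and 4 lower, with a median of -0.16. RNF145, a ubiquitin ligase that acts on sterol-regulated proteins, averaged 10.2 ± 1.69 CPM in the Landrace pigs (SD, n = 28) against 18.6 ± 3.19 CPM in the Duroc pigs (SD, n = 13), a difference of -0.71 (SE 0.11, FDR = 1.7e-05). SCAP, the escort of SREBP to the Golgi, differed by -0.24 (FDR = 0.018), while the ligase SYVN1 was higher by 0.43 (FDR = 0.012), or by 0.25 with library size scaling, where it was not called (FDR = 0.12). Of 8 genes of cholesterol uptake and trafficking 1 was higher and 4 were lower, with a median of -0.34. NPC1, which exports cholesterol from lysosomes, differed by -0.51 (FDR = 0.0028), the HDL receptor SCARB1 by -0.40 (FDR = 0.018) and MYLIP, a ubiquitin ligase of lipoprotein receptors, by -0.73 (FDR = 0.042).

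Of 12 other users of isoprenoids 0 were higher and 3 were lower, with a median of -0.13. They were DHDDS of dolichol synthesis at -0.57 (FDR = 0.00045), the CAAX protease RCE1 at -0.53 (FDR = 0.0062) and PDSS1 of coenzyme Q synthesis at -0.43 (FDR = 0.0091). Of 6 genes of cholesterol export and storage 1 was called, CH25H (cholesterol 25-hydroxylase), at -1.85 (FDR = 0.00023) with 3 to 141 counts per pig, and the median of the 6 was -0.16. The size for CH25H depended on the model and the batch. The observed means were 1.20 CPM in Landrace and 1.88 CPM in Duroc, the fitted difference was -1.01 with batch left out and -1.24 with age left out, and within batches it ran from -0.24 in batch 2 to -2.19 in batch 5. Of 10 fatty acid synthesis genes, many of them targets of the related factor SREBP-1, 1 was higher and 5 were lower, with a median of -0.58. ACACA, which makes malonyl-CoA, differed by -0.94 (FDR = 6.1e-05), the desaturases FADS1 and SCD by -0.80 (FDR = 0.0094) and -1.39 (FDR = 0.030), and the acetyl-CoA synthetase ACSS2 by -0.32 (FDR = 0.022). With batch left out of the model, the calls of LBR, SYVN1, SCARB1, MYLIP, PDSS1, RCE1, FADS1 and SCD were lost (FDR from 0.102 to 0.51). With age left out those of SCARB1 (-0.19, FDR = 0.26), MYLIP (-0.38, FDR = 0.27), FADS1 (-0.42, FDR = 0.16) and SCD (-0.85, FDR = 0.14) were lost as well. SCD was -0.44 with batch left out, and its observed means were 3.03 ± 3.38 CPM in Landrace (SD, n = 28) and 3.46 ± 1.65 CPM in Duroc (SD, n = 13). FADS1 was -0.45 with batch left out, with observed means of 2.99 ± 1.10 (SD, n = 28) and 3.26 ± 1.27 CPM (SD, n = 13).

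The scaling of the libraries bears on these counts. With library size alone in place of TMM, the median breed difference of all genes moved from -0.0024 to -0.18, and the genes called higher and lower changed from 1737 and 1955 to 534 and 3596. Relative to that median the members were nearly as before, at 1.26 for IDI1, 0.30 for GGPS1, 0.47 for FDFT1, 0.71 for INSIG1, -0.63 for SREBF2, -0.24 for HMGCS1 and -0.70 for SQLE. Without such centring GGPS1, FDFT1 and INSIG1 kept their sign and lost their call (FDR = 0.31, 0.16 and 0.21), and HMGCS1 and SQLE were called lower (FDR = 0.022 and 0.033).

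RNA integrity was called for more genes than breed, with 51.8% of all genes called for RIN, 23.9% upward and 27.9% downward. Of the 7 members tested, 2 were called. IDI1 fell by 0.20 on the log2 scale per RIN unit (SE 0.091, FDR = 0.075), and HMGCS1 rose by 0.22 (SE 0.096, FDR = 0.066). The IDI1 call was lost without Landrace pig 14 (-0.17, FDR = 0.14), without a filter on low counts (-0.13, FDR = 0.35) and with the pairs of both strands counted (-0.039, FDR = 0.75), and GGPS1 was called without that pig (0.11, FDR = 0.082). The HMGCS1 call was lost with limma (0.19, FDR = 0.11). Without the 2 pigs of RIN below 7 neither IDI1 nor HMGCS1 was called. The IDI1 slope was then still at -0.20 (FDR = 0.19) and the HMGCS1 slope at 0.066 (FDR = 0.73). With library size alone as the scaling the IDI1 slope turned to 0.11 (FDR = 0.33), though relative to the median of all genes it stayed at -0.19. The other 5 had slopes between -0.19 (SQLE) and 0.25 (INSIG1), with FDR values from 0.27 to 0.88. In Landrace alone the slopes were -0.24 for IDI1 (SE 0.10, FDR = 0.067) and 0.26 for HMGCS1 (SE 0.10, FDR = 0.049). In Duroc alone they were -0.10 (SE 0.20, FDR = 0.82) and 0.17 (SE 0.29, FDR = 0.78). The difference of the IDI1 slopes between the breeds was -0.39 (SE 0.19, p = 0.045, edgeR FDR = 0.95), and 0% of all genes were called for a difference between the breeds in the RIN slope.

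Age at slaughter was called for 1.76% of all genes and for 0 of the 7 members, with 1 of the 7 at an unadjusted p under 0.05 by edgeR, a limit that 16% of all genes passed. This was SREBF2, which had a slope of 0.29 per 10 days (SE 0.11, FDR = 0.19). With batch left out of the model the SREBF2 slope was 0.0020 per day (FDR = 0.97). IDI1 had a slope of -0.12 per 10 days (SE 0.096, FDR = 0.57). The age slope was called as different between the breeds for 0% of all genes.

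Feed conversion ratio was the trait the study was built on, and 0% of all genes were called for it by edgeR. At an unadjusted p under 0.05 there were 968 genes, DESeq2 called 5 and limma with voom 0. IDI1 had a slope of 0.0052 on the log2 scale per 0.1 of FCR (SE 0.045, FDR = 0.98), so the gene that separated the breeds carried no detectable slope with FCR in these pigs. Its sign turned under 4 of 13 other settings. The member with the smallest p was GGPS1, a gene the study itself had singled out in its search for gene pairs tied to FCR, so it is not independent of this trait. Its slope was 0.082 per 0.1 of FCR (SE 0.025, p = 0.0021, edgeR FDR = 0.52). The slope was positive in all 13 other settings, which include Landrace alone (0.096) and Duroc alone (0.11). These settings share pigs, so their signs are not independent. FDFT1 had a slope of -0.11 per 0.1 (SE 0.058, FDR = 0.59). In Duroc alone it was -0.25 (SE 0.071, FDR = 0.79) and in Landrace alone -0.0050 (SE 0.079, FDR = 1.00), and the difference between the breeds did not pass (p = 0.025, edgeR FDR = 0.92). No gene was called for a breed difference in the FCR slope by edgeR, or 0%, with 582 genes at an unadjusted p under 0.05 and 1 called by DESeq2.

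**Figure D4:**
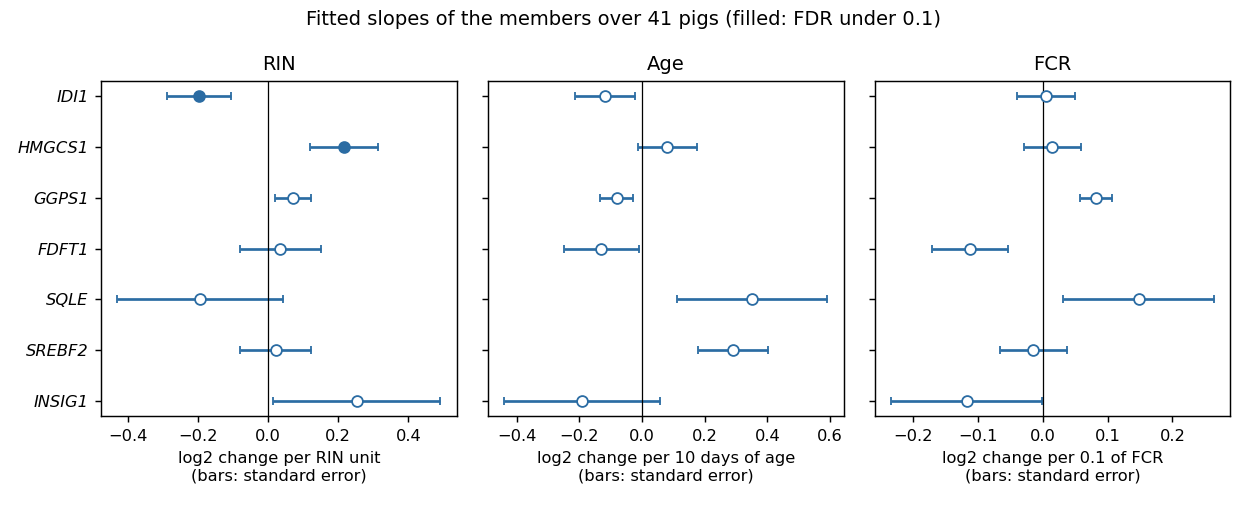
Fitted slopes of the 7 tested members over 41 pigs as log2 change per RIN unit, per 10 days of age and per 0.1 of FCR (horizontal axes, bars are standard errors). Filled points have an FDR under 0.1, which holds for IDI1 and HMGCS1 with RIN, in opposite directions, and for none of the points for age or FCR.

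Within a breed, no member was found to rise and fall with IDI1. Pearson's r and Spearman's rho of log2 CPM were taken between IDI1 and each of the 7 other members in each breed, with permutation tests adjusted over these 14 relations, and 1 relation passed. This was IDI1 and SREBF2 in the Landrace pigs, and it did not pass once batch was taken into account. Over all batches the values were negative (r = -0.58, permutation p = 0.0013, adjusted p = 0.018; rho = -0.54, permutation p = 0.0032, adjusted p = 0.045; n = 28). Without the 2 pigs farthest from the median of IDI1 r was -0.64, and after removal of RIN, age and FCR it was -0.58. These permutations exchange pigs between batches, and both genes differed by batch, with SREBF2 means of 21.0, 19.1, 12.1 and 14.2 CPM in batches 2 to 5. With the batch means removed and pigs permuted within batches, a test added after the data were seen, r was -0.39 (permutation p = 0.062, adjusted p = 0.86) and rho -0.36 (permutation p = 0.095, adjusted p = 0.64). Within single batches r was -0.53 (n = 12) in batch 2, -0.059 (n = 7) in batch 3 and -0.17 (n = 7) in batch 5. After removal of RIN, age and FCR these values were -0.54, -0.057 and -0.46. Without the 2 pigs of RIN below 7 they were -0.53 (n = 11), -0.059 (n = 7) and -0.66 (n = 6), so the value in batch 5 rests on 1 pig. Over all batches the permutation test of rho had an adjusted p of 0.056 after the removal and of 0.081 without these 2 pigs. Both genes also moved with the TMM factor of the library in Landrace, IDI1 with r = -0.67 and SREBF2 with r = 0.52, and the part of this in the relation was not tested.

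HMGCS1 had r = -0.45 with IDI1 in Landrace (permutation p = 0.015, adjusted p = 0.11; rho = -0.41, permutation p = 0.031, adjusted p = 0.21), which fell to -0.26 without the 2 farthest pigs and to -0.13 after removal of RIN, age and FCR. FDFT1 had r = 0.42 (permutation p = 0.025, adjusted p = 0.11; rho = 0.28, permutation p = 0.15, adjusted p = 0.41) and 0.17 without the 2 farthest pigs, and after removal of RIN, age and FCR it had 0.39 (permutation p = 0.041, adjusted p = 0.29). The remaining r in Landrace lay between -0.24 (SQLE) and 0.062 (GGPS1). After that removal FDPS went from 0.012 to 0.30 and GGPS1 from 0.062 to 0.31, neither of which passed (adjusted p = 0.32 for both). With the batch means removed the 6 members other than SREBF2 lay between -0.043 (HMGCS1) and 0.14 (FDPS) in Landrace. In the 13 Duroc pigs SREBF2 had r = 0.49 with IDI1 (permutation p = 0.092, adjusted p = 0.32; rho = 0.57, permutation p = 0.045, adjusted p = 0.21) and INSIG1 r = -0.42 (permutation p = 0.16, adjusted p = 0.44; rho = -0.53, permutation p = 0.065, adjusted p = 0.23). The other 5 lay between -0.21 and 0.27. No batch held 6 Duroc pigs, so no r within single batches is given for them. With the batch means removed, in the 12 Duroc pigs of batches 2 to 5, SREBF2 had r = 0.50 (permutation p = 0.19, adjusted p = 0.94). INSIG1 had r = -0.32 there (permutation p = 0.34, adjusted p = 0.94). The difference in r between the breeds was not tested.

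**Figure D5:**
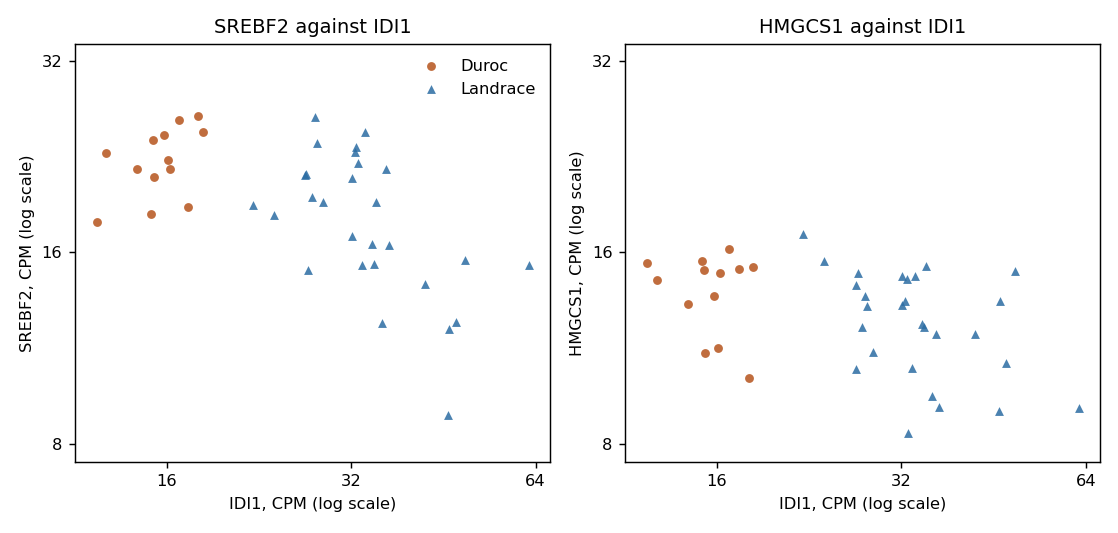
SREBF2 (left) and HMGCS1 (right) against IDI1, each in CPM on log2-spaced axes, with one point per pig for Duroc (circles) and Landrace (triangles). Among the Landrace pigs r is -0.58 for SREBF2, or -0.39 with the batch means removed, which did not pass, and -0.45 for HMGCS1, which did not pass either.

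None of the genes with a symbol among the 10 most like IDI1 in pattern was on the sterol lists used here. After breed, FCR, RIN, age and batch were removed from log2 CPM over the 41 pigs, the highest r among 11146 genes was 0.74 for FOCAD, a focal adhesion protein. It was followed by the proteasome adaptor ECPAS (0.63), the mitochondrial glycerol phosphate dehydrogenase GPD2 (0.62), NDFIP2, an adaptor of NEDD4 ubiquitin ligases (0.62), and the plasma membrane calcium pump ATP2B1 (0.60). The zinc finger genes ZNF236, ZNF140 and ZNF292 (0.58, 0.57 and 0.56) and 2 genes without a symbol (0.59 and 0.58) completed the first 10. FOCAD averaged 22.6 ± 2.92 CPM in the Landrace pigs (SD, n = 28) against 22.1 ± 1.22 CPM in the Duroc pigs (SD, n = 13). Since breed was removed first, the likeness can only lie in the spread within the breeds. The members had r from -0.24 (SREBF2) to 0.16 (GGPS1) on this measure, and the best of them ranked 2380.

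Before any removal the likeness follows the breeds. The highest r was 0.88 for each of TBC1D7, a subunit of the TSC complex, and 2 genes without a symbol, and it was 0.85 for ASB1, a SOCS box protein, and for another gene without a symbol. TBC1D7 averaged 20.3 ± 3.12 CPM in the Landrace pigs (SD, n = 28) against 10.1 ± 1.57 CPM in the Duroc pigs (SD, n = 13), and ASB1 was 92.8 ± 19.4 and 39.2 ± 5.84 CPM. Of the members GGPS1 came closest at 0.67 and rank 125, while HMGCS1 at -0.44 and SREBF2 at -0.58 were near the other end. These r values are descriptions over pigs that share breed, batch and scaling. Since IDI1 separates the breeds, they carry the breed difference of each gene. Within a breed GGPS1 had r = 0.062 in Landrace and 0.27 in Duroc pigs.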

How the data were processed

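Muscle mRNA of 41 pigs was sequenced as unstranded pairs. The authors trimmed reads with Trimmomatic 0.39, aligned them to Sscrofa11.1 (Ensembl annotation) with STAR 2.7.1a and deposited whole counts of pairs per gene, without normalization. The unstranded column was used, and the sum of both stranded columns was an added alternative. Symbols and positions came from tables of Ensembl names and RefSeq (Sscrofa11.1).

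Breed (Landrace minus Duroc), FCR, RIN, age and batch as a factor were fitted with edgeR 4.0.16 in R 4.3.3 (quasi-likelihood in legacy form, TMM, filterByExpr). FDR values are Benjamini-Hochberg over 11146 genes, with a threshold of 0.1. Standard errors are the log2 coefficient over the root of F. CPM are counts per 1000000, and log2 CPM used a prior count of 2. DESeq2 1.42.0 tested the 10765 genes with at least 5 counts in every pig, and limma 3.58.1 was used with voom. Correlations used 100000 two-sided permutations in Python 3.11.15 with NumPy 2.4.6 and SciPy 1.17.1. The fits of the breed term were tested on simulated data. At most 4 called genes per list are named, by smallest p, and some are not reported here. The members and the lists were chosen with earlier results of these data known. Total counts of 22188911 to 25954816 per pig leave counting error large for genes with few counts, such as SQLE and FDPS.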

Additional observations from a re-analysis of the deposited data

How the results depend on the processing

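The IDI1 breed difference of 1.26 lay between 1.08 and 1.5 under 17 other settings, and it was 0.85 within batch 3. The values within batches and within the shared FCR, RIN and age ranges are differences of mean log2 CPM without covariates. The others are fitted. Of the other 6 tested members, 4 were called for breed, against 2 with batch left out, and of the 16 other synthesis enzymes 5, against 3 with batch left out and 8 with library size scaling. Over all genes, 3692 were called for breed against 2434 with batch left out. Among the members, the mean differences within a batch turned sign for FDFT1 in batch 4 (-0.24) and HMGCS1 in batch 3 (0.015). They also turned for INSIG1 in batches 3 (-0.32) and 4 (-0.063), SQLE in batches 2 (0.40) and 3 (0.14) and SREBF2 in batch 2 (0.049). Of the genes named from the other lists, FADS1 (0.39), LBR (0.017) and SCARB1 (0.036) turned in batch 2 and PDSS1 (0.014) in batch 3.

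For RIN, 1 of the 6 members besides IDI1 was called. The count was 0 with limma, without the 2 pigs of RIN below 7 and in Duroc alone, 2 with either strand setting, without a filter and without Landrace pig 14, and 5 with library size scaling. For the 16 other enzymes it was 10, against 5 without the 2 pigs and 0 in Duroc alone, where 0 of all genes were called against 5775. RIN slopes turned sign for FDFT1 with batch left out (-0.074) and with either strand setting (-0.037), for IDI1 with library size scaling (0.11), for SQLE with batch left out (0.025) and library size scaling (0.11), for SREBF2 in Duroc (-0.093) and in Landrace alone (-0.017), and in Duroc alone for GGPS1 (-0.0096) and INSIG1 (-0.14).

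Over all genes 196 were called for age, against 545 with DESeq2, 814 with batch as a number, 45 with library size scaling, 99 without a filter and 0 with batch left out. The age slope per day turned sign for INSIG1 without Landrace pig 14 (0.0054) and for SQLE with batch left out (-0.00068). For FCR DESeq2 called 5 genes and for FCR by breed 1, against 0 with edgeR. The slope per unit of FCR turned sign for IDI1 in Landrace alone (-0.37), with age left out (-0.13), with limma (-0.022) and without the 2 pigs of RIN below 7 (-0.028), and for SREBF2 in Duroc alone (1.16), with age left out (0.29), batch as a number (0.0039), batch left out (0.24) and library size scaling (0.48). None of these was called. The r with IDI1 turned sign for FDFT1 in Duroc (-0.0018) and INSIG1 in Landrace (0.057) after removal of RIN, age and FCR, and without the 2 pigs for FDPS (-0.063) and INSIG1 (0.031) in Landrace. With the batch means removed it turned for INSIG1 (0.0013) and SQLE (0.045) in Landrace and for FDFT1 (-0.27) and GGPS1 (-0.023) in Duroc, and 0 of the 14 relations passed, against 1. The causes were not tested. The groups hold more than 5 pigs, so single pigs were left out only as named. No paired analysis was possible because the pigs' numbers follow the order of the samples and pair no animals.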
